A study of Sus scrofa with 18 samples.

Results

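The genes described here are the chaperones and cochaperones of the pig kidney other than the most stress-inducible members of the HSP70, HSP110 and J-protein families. They were chosen by name: genes whose symbol in the platform annotation begins with HSP, DNAJA, DNAJB, DNAJC, PDIA or FKBP, or is one of the numbered CCT or BAG genes. HSPA6, HSP70.2, HSPH1, DNAJB1, DNAJA4, DNAJC3 and HSP90AA1 were left out. This gave 65 of the 6765 genes that the annotation names with 1 symbol, measured by 104 of 23999 probe sets. Each gene was followed through its brightest probe set by the mean over all 18 arrays. By compartment, 14 members were grouped as cytosolic HSP70, HSP90 and small heat shock proteins. HSPBP1, an exchange factor for HSP70, and HSPB11 were counted with these. A further 12 were cytosolic or nuclear J proteins, 4 were BAG cochaperones and 7 were cytosolic or nuclear FKBP proteins. Of the rest, 5 were subunits of the CCT ring, 16 belonged to the endoplasmic reticulum and 7 to mitochondria.

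The study profiled pig kidneys after transplantation, with and without carbon monoxide (CO), on a one-colour Affymetrix array, and its title places the question in ischaemia and reperfusion injury. There were 2 naive kidneys, which were not transplanted and not treated. Transplanted kidneys were sampled at 4 h, 4 untreated and 4 labelled as treated with CO, from donors 1 to 4, and at 24 h, again 4 untreated and 4 labelled CO, from donors 5 to 8. Each donor gave 1 untreated and 1 CO array. The titles and source names of the CO arrays name CO while their treatment field reads air, and the titles were followed. Strain, age, CO dose, and who received the gas are not given in the sources used here. The naive arrays carry animal numbers that recur on the arrays of donor 4, so that they may not be independent of them.

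Chaperones bind unfolded proteins and cycle them through states driven by ATP. HSP70 proteins are handed clients by J proteins, release them with the help of nucleotide exchange factors such as BAG and HSP110 proteins, and pass some of them on to HSP90 or to the ring-shaped chaperonins, CCT in the cytosol and HSPD1 with HSPE1 in mitochondria. The endoplasmic reticulum has its own set, with HSPA5 and HSP90B1 as main chaperones and protein disulfide isomerases (PDIA) to form disulfide bonds. Heat shock factor 1 drives many cytosolic members and the unfolded protein response drives many of those of the endoplasmic reticulum, and ischaemia of the kidney is known to engage both.

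Values are log2 expression. Array medians lay between 3.75 and 3.94, and 63 of the 65 members exceeded a background of 1.69 on all 18 arrays. FKBP6 stayed under the background on every array, and HSPB3 exceeded it only on the untreated array of donor 8 at 24 h. Arrays stood apart at 4 h. The untreated array of donor 1 correlated more closely with the naive arrays (mean r = 0.982 over all probe sets) than with its own group (0.956), and the median member lay -0.03 from the naive mean there, against 0.43 to 0.47 on the other 3 untreated arrays. It goes against its label, so the results on untreated kidneys at 4 h that turn on it are given with and without it. The fit shares its spread across all groups, so this array also enters the SEs and p-values of other comparisons. Those of CO kidneys with naive ones are given only with it. The array was singled out after its values were seen, those of the members included. Counts and p-values without it are therefore descriptive and no independent support. The CO array of donor 2 was low for several cytosolic members and was kept in those fits. Levels are of whole tissue, in which fewer cells of a type and less RNA per cell cannot be told apart. Proximal tubule markers, 4 of 8 listed ones measured, had a mean level of 9.95 to 10.1 in naive kidneys, 9.03 to 9.64 in untreated and 8.23 to 9.51 in CO kidneys at 4 h, and 5.74 to 7.04 and 6.46 to 8.19 at 24 h. Myeloid markers, 9 of 12 measured, had a mean level of 2.61 to 3.17 in naive kidneys, 3.45 to 5.02 in untreated and 3.29 to 3.69 in CO kidneys at 4 h, and 3.78 to 5.24 and 3.27 to 5.08 at 24 h. Against naive, 4 of the 9 rose in untreated and 2 in CO kidneys at 24 h, and the median difference of CO minus untreated at 4 h was -1.19, where 0 passed. The part of either marker list in the results was not tested.

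**Figure D1:**
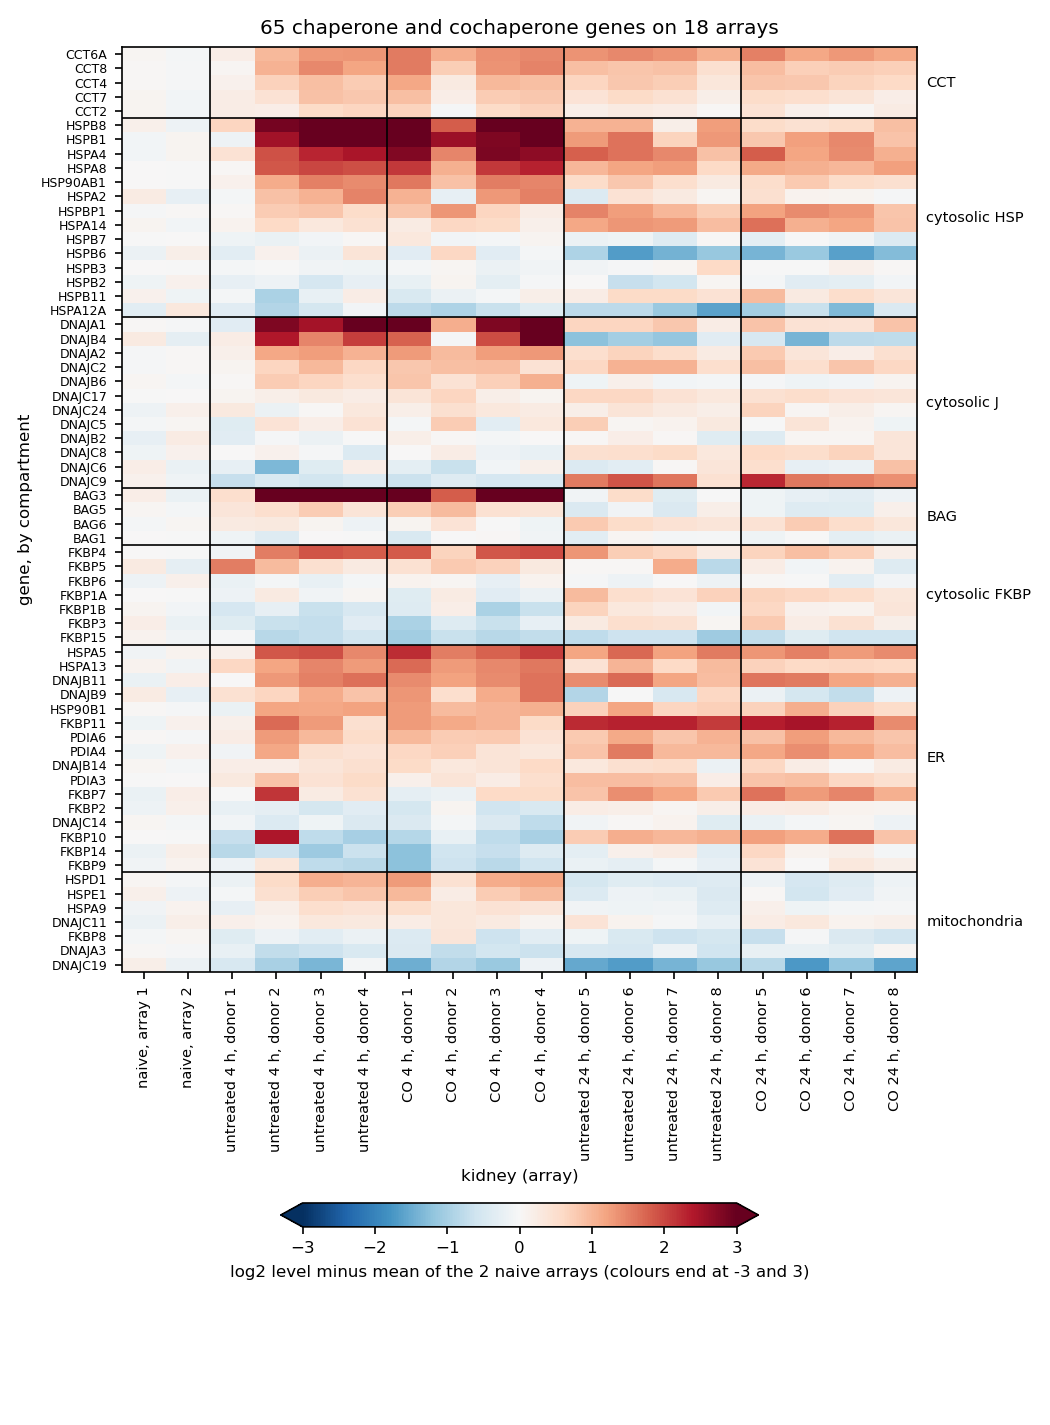
Log2 difference of each of the 65 members (rows, by compartment) from the mean of the 2 naive arrays, on each of 18 arrays (columns, by group and donor). BAG3, HSPB1, HSPB8 and DNAJA1 are high on 7 of the 8 arrays at 4 h, and the untreated 4 h array of donor 1 looks like the naive arrays.

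In CO kidneys at 4 h after transplantation, 22 members rose and 2 fell against naive kidneys, with BAG3, HSPB8, HSPB1 and DNAJA1 raised the most (limma, adjusted p under 0.05), or 36.9% of members. Of all probe sets 13.6% passed, 6.84% higher and 6.72% lower, and of genes by their brightest probe set 20.5%. The median member differed by 0.42 on the log2 scale, against -0.01 over all probe sets. In untreated kidneys 1 member rose and 0 fell (1.54% of members), where 1.5% of all probe sets passed, 0.942% higher and 0.563% lower, and 2.25% of genes. At an unadjusted p under 0.05 there were 30 of 65 members and 4973 of 23999 probe sets. Without the array of donor 1 the untreated count was 23 members higher and 2 lower, or 38.5%, where 13.9% of all probe sets and 19.6% of genes passed. The CO share of 36.9% is from the fit of all arrays, whose shared spread includes donor 1 untreated. The 36.9% and 38.5% thus come from unlike fits. At 24 h against naive, 14 members rose and 4 fell in untreated kidneys, 27.7% of members, where 14.6% of probe sets passed, 6.79% higher and 7.77% lower, and 22.9% of genes. In CO kidneys 11 rose and 2 fell, 20% of members, where 11.7% of probe sets passed, 5.75% higher and 5.93% lower, and 18.8% of genes. The 24 h shares are close to those of all named genes. The naive side of every such comparison is the same 2 arrays. Without either of them most calls were lost, among the members and over all probe sets alike. The median member then differed by 0.36 (without naive 1) and 0.40 (without naive 2) in CO kidneys at 4 h. At 24 h it differed by 0.36 and 0.315 in untreated and by 0.40 and 0.375 in CO kidneys. With all arrays, 12 genes called with CO at 4 h have further probe sets. Of these 20 probe sets 18 differed in the same direction and only 6 also passed. At 24 h the numbers were 11, 10 and 6 in untreated and 8, 8 and 4 in CO kidneys. Calls of single genes below are those of the brightest probe set unless others are named.

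BAG3, a cochaperone that joins HSP70 to small heat shock proteins, was among the most raised. Naive arrays read 8.19 and 7.79. CO arrays at 4 h read 11.78, 9.81, 11.50 and 11.79 in donors 1 to 4, and untreated arrays read 8.49, 11.09, 11.36 and 11.27. All 8 arrays were above the naive ones, with donor 1 untreated close to them. BAG3 rose in CO kidneys by 3.23 ± 0.65 (SE), 9.37-fold (limma, adjusted p = 0.0078). In untreated kidneys it differed by 2.56 ± 0.65 (limma, adjusted p = 0.0538), and without donor 1 by 3.25 ± 0.43 (limma, adjusted p = 0.000181). A further BAG3 probe set rose in CO kidneys by 3.31. At 24 h the untreated arrays read 7.88, 8.54, 7.63 and 7.98 and the CO arrays 7.87, 7.76, 7.68 and 7.84, within or near the naive range. Of the other BAG genes, BAG1 stayed between 6.88 and 7.40 on all 18 arrays, and BAG5 and BAG6 did not pass against naive.

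Small heat shock proteins, which hold unfolded proteins without ATP, split by member. HSPB1 read 8.53 and 8.70 in naive kidneys. It read 8.46, 11.13, 11.63 and 11.75 in untreated and 11.80, 11.18, 11.43 and 11.79 in CO kidneys at 4 h, so that only donor 1 untreated overlapped the naive values. HSPB1 rose in CO kidneys by 2.93 ± 0.62, 7.64-fold (limma, adjusted p = 0.00932), and in untreated kidneys differed by 2.12 ± 0.62 (limma, adjusted p = 0.0756), or 2.88 ± 0.28 without donor 1 (limma, adjusted p = 1.98e-05). At 24 h HSPB1 still read 9.29 to 10.23 over both groups, above both naive arrays, but did not pass.

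HSPB8, the partner of BAG3 in delivering clients to autophagy, read 3.63 and 3.31 in naive kidneys. At 4 h it read 4.11, 6.33, 6.61 and 8.00 in untreated and 6.58, 5.29, 6.79 and 7.82 in CO kidneys. All 8 arrays were above both naive ones, and donor 4 was highest in both groups. It rose in CO kidneys 8.88-fold (limma, adjusted p = 0.014). In untreated kidneys it differed by 2.79 ± 0.74 (limma, adjusted p = 0.0613), and without donor 1 it rose by 3.51 ± 0.56 (limma, adjusted p = 0.000826). HSPB6, a small heat shock protein of muscle, went the other way and later: naive arrays read 4.54 and 4.89, the 4 h arrays 4.37 to 5.34, and the 24 h arrays 3.80, 3.04, 3.31 and 3.59 untreated and 3.32, 3.60, 3.10 and 3.41 with CO. No 24 h array reached the lowest naive or 4 h array. It fell by 1.28 in untreated kidneys and by 1.36 in CO kidneys against naive (limma, adjusted p = 0.00576 and 0.00555). HSPB2 and HSPB7 did not pass in any comparison.

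**Figure D2:**
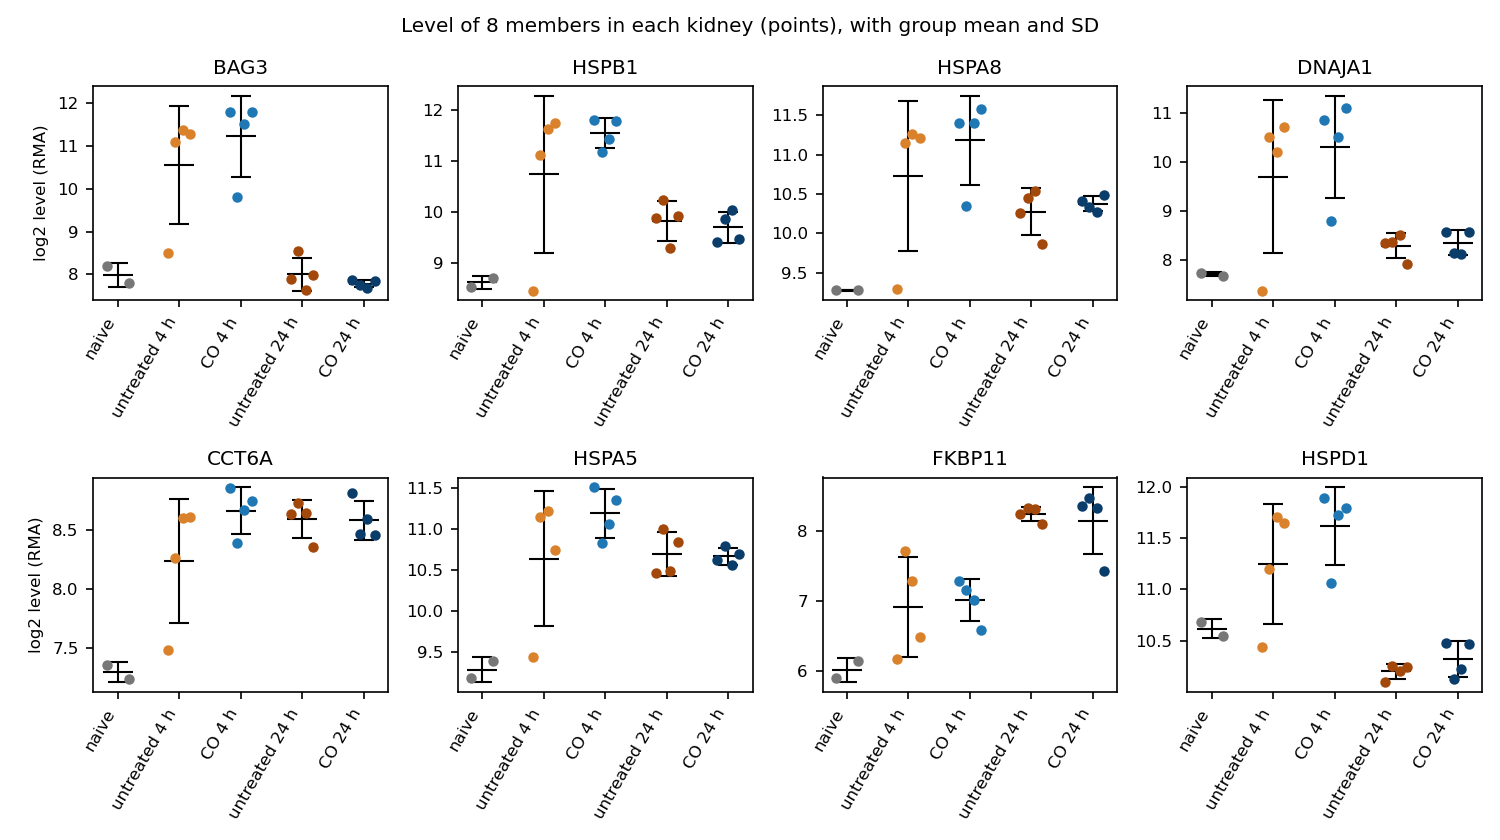
Log2 level of 8 members on each array (points), with the mean and SD of each group (bars), for the 2 naive arrays and the 4 arrays of each other group; each panel has its own axis. BAG3 and HSPB1 are high at 4 h, and the lowest untreated 4 h point is donor 1.

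Of the cytosolic HSP70 and HSP90 members, HSPA8, the constitutive HSC70, read 9.27 on both naive arrays. At 4 h it read 9.30, 11.14, 11.27 and 11.21 in untreated and 11.40, 10.34, 11.40 and 11.59 in CO kidneys. Donor 1 untreated sat at the naive level and the CO array of donor 2 was low among its group. It rose in CO kidneys by 1.91 ± 0.44, 3.76-fold (limma, adjusted p = 0.0127), but the other 3 HSPA8 probe sets differed by 0.13, -0.09 and -0.15 and none passed, so the rise rests on the brightest probe set. In untreated kidneys that probe set differed by 1.46 ± 0.44 (limma, adjusted p = 0.0825), and without donor 1 it rose by 1.93 ± 0.28 (limma, adjusted p = 0.000405). At 24 h that probe set did not pass in untreated kidneys while another HSPA8 probe set fell by 0.64 (limma, adjusted p = 0.0304). Probe sets of closely related HSP70 genes may bind each other's transcripts, which was not tested.

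HSPA4, an HSP110-type exchange factor for HSP70, read 5.54 and 5.71 in naive kidneys. It read 6.05, 7.53, 7.91 and 8.06 in untreated and 8.40, 7.08, 8.46 and 8.32 in CO kidneys at 4 h, all above naive. It rose in CO kidneys 5.42-fold (limma, adjusted p = 0.00703). The untreated difference was 1.76 ± 0.47 (limma, adjusted p = 0.0621), and without donor 1 HSPA4 rose by 2.21 ± 0.36 (limma, adjusted p = 0.000982). HSP90AB1, the constitutive cytosolic HSP90, went from 9.60 and 9.56 to 10.47 to 11.17 with CO, a rise of 1.37 ± 0.30 (limma, adjusted p = 0.0106), and in untreated kidneys to 9.71, 10.70, 11.09 and 11.01, which passed only without donor 1 (1.35 ± 0.21, limma, adjusted p = 0.000677). HSPA14, an HSP70 that works with DNAJC2 at the ribosome, was raised at 24 h, not at 4 h: naive arrays read 4.65 and 4.47 and 24 h arrays 5.42 to 6.21, with no overlap. Its changes were 1.17 ± 0.21 untreated and 1.19 ± 0.21 with CO (limma, adjusted p = 0.00196 and 0.00274). HSPBP1, an exchange factor for HSP70, rose by 1.12 and 1.19 in the same comparisons. HSPA12A, a distant HSP70 relative, fell in untreated kidneys at 24 h (limma, adjusted p = 0.0201), from 5.35 and 5.99 to 4.89, 4.87, 4.56 and 4.05, and did not pass in CO kidneys, which read 4.66, 5.01, 4.35 and 5.24. The difference between CO and untreated kidneys did not pass for it either.

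J proteins carry clients to HSP70 and stimulate its ATPase. Of the 12 cytosolic or nuclear ones, 4 rose in CO kidneys at 4 h and 0 fell, 33.3%, where 13.6% of probe sets and 20.5% of genes passed. In untreated kidneys 0 passed with all arrays. Without donor 1, 5 rose, where 13.9% of probe sets and 19.6% of genes passed. DNAJA1 read 7.74 and 7.68 in naive kidneys, 7.38, 10.50, 10.20 and 10.71 in untreated and 10.85, 8.79, 10.51 and 11.09 in CO kidneys at 4 h. The lowest of each 4 h group were donor 1 untreated and donor 2 with CO, and donor 1 untreated was below both naive arrays. It rose in CO kidneys by 2.60 ± 0.71, 6.06-fold (limma, adjusted p = 0.0265). With no CO it differed by 1.99 ± 0.71 (limma, adjusted p = 0.128), and without donor 1 it rose by 2.76 ± 0.46 (limma, adjusted p = 0.00112). DNAJA2, a close relative, rose by 1.19 ± 0.25, DNAJB6 by 0.76 ± 0.19 and DNAJC2, the ribosome-bound partner of HSPA14, by 0.77 ± 0.23 (limma, adjusted p = 0.00858, 0.019 and 0.0352). For DNAJB6 the other 3 probe sets differed by 0.03 to 0.57 and did not pass.

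DNAJB4 was high at 4 h and low at 24 h. It read 6.61 and 6.07 in naive kidneys, 6.55, 8.74, 7.80 and 8.42 in untreated and 8.10, 6.30, 8.29 and 9.57 in CO kidneys at 4 h, and 4.94 to 6.01 over the 8 arrays at 24 h. Every 24 h array was under every 4 h array and both naive ones, although no comparison with naive passed in the fit of all arrays. Without donor 1 untreated it rose in untreated kidneys at 4 h by 1.98 ± 0.62 (limma, adjusted p = 0.0437). DNAJC9, a chaperone of histones that is active in dividing cells, was the reverse: 3.98 and 3.74 in naive kidneys, 3.17 to 3.48 over the 8 arrays at 4 h, and 5.42, 5.74, 5.46 and 4.31 untreated and 6.11, 5.45, 5.38 and 5.24 with CO at 24 h. It rose against naive by 1.37 ± 0.30 untreated and 1.68 ± 0.30 with CO (limma, adjusted p = 0.00637 and 0.00281). DNAJC17 rose in untreated kidneys at 24 h by 0.50 and DNAJC8, a splicing-linked J protein, in CO kidneys by 0.53.

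FKBP proteins are prolyl isomerases, several of them partners of HSP90. FKBP4, an HSP90 cochaperone of steroid receptors, read 6.65 and 6.63 in naive kidneys, 6.54, 8.17, 8.53 and 8.45 in untreated and 8.47, 7.30, 8.50 and 8.59 in CO kidneys at 4 h. As for DNAJA1, donor 1 untreated lay under both naive arrays and donor 2 was the lowest with CO. It rose in CO kidneys 2.98-fold (limma, adjusted p = 0.0371). Untreated kidneys differed by 1.28 ± 0.47 (limma, adjusted p = 0.136), and without donor 1 FKBP4 rose there by 1.74 ± 0.35 (limma, adjusted p = 0.00401). FKBP5, its counterpart and a glucocorticoid-induced gene, read 6.43 and 5.87 in naive kidneys and 7.69, 7.09, 6.62 and 6.42 in untreated and 6.61, 6.94, 6.84 and 6.44 in CO kidneys at 4 h. The highest FKBP5 value of all 18 arrays was that of donor 1 untreated, the array that stands apart, and no comparison of this probe set passed. A dimmer FKBP5 probe set fell from 4 h to 24 h by 0.76 untreated and by 0.98 with CO (limma, adjusted p = 0.0293 and 0.00499). FKBP15 fell in CO kidneys at 4 h by 0.82 and in untreated kidneys at 24 h by 0.77, and FKBP1A, the target of tacrolimus and rapamycin, rose in untreated kidneys at 24 h by 0.63 (limma, adjusted p = 0.0167, 0.0182 and 0.0351).

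The CCT ring folds actin and tubulin. Of the 5 measured subunits 4 rose in CO kidneys at 4 h, where 13.6% of probe sets and 20.5% of genes passed. The median subunit differed by 0.83, against -0.01 over all probe sets. CCT6A read 7.36 and 7.24 in naive kidneys. At 4 h it read 7.49, 8.26, 8.60 and 8.61 in untreated and 8.85, 8.39, 8.67 and 8.74 in CO kidneys, and at 24 h 8.36 to 8.81 over both groups. Donor 1 untreated was the nearest to the naive arrays, and no transplanted array overlapped them. CCT6A rose by 1.37 ± 0.25 with CO at 4 h and by 1.30 and 1.29 (each ± 0.25) in untreated and CO kidneys at 24 h (limma, adjusted p = 0.00579, 0.00284 and 0.00419). A further CCT6A probe set rose by 1.09, 1.05 and 1.17 in these. CCT8 rose by 1.29, CCT4 by 0.83 and CCT7 by 0.67 in CO kidneys at 4 h (limma, adjusted p = 0.0121, 0.0279 and 0.0468), and CCT2 did not pass, with 8.998 and 8.83 in naive and 8.89 to 9.61 in CO kidneys. In untreated kidneys 0 of the 5 passed with all arrays, where 1.5% of probe sets and 2.25% of genes passed. Without donor 1 CCT4, CCT6A, CCT7 and CCT8 rose, by 0.78, 1.19, 0.71 and 1.22. In that fit 13.9% of probe sets and 19.6% of genes passed. No CCT subunit passed between 4 h and 24 h in either group. In CO kidneys all 5 were lower at 24 h, by a median of -0.25 and down to -0.51. Of them 1 had an unadjusted p under 0.05, as had 7468 of 23999 probe sets.

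**Figure D3:**
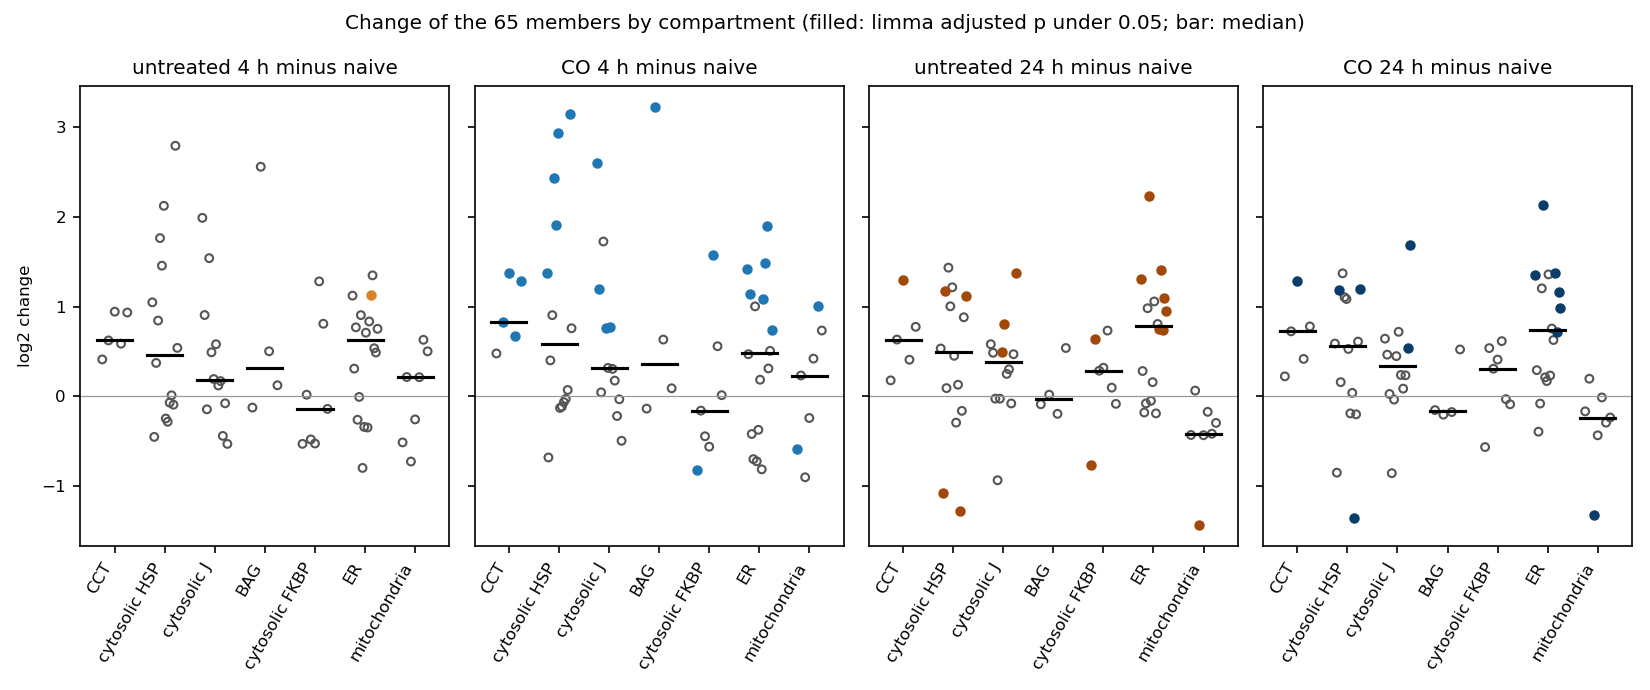
Log2 change from naive kidneys of each of the 65 members (points, filled where limma's adjusted p was under 0.05) by compartment, with the median of the compartment (bar), for the 4 transplanted groups. With CO at 4 h, 4 of the 5 CCT points are filled and above 0; at 24 h the filled points of the endoplasmic reticulum are above 0.

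In the endoplasmic reticulum, HSPA13 passed against naive kidneys in both groups at 4 h and in untreated kidneys at 24 h. HSPA13 is an HSP70 of microsomes. It read 6.14 and 5.91 in naive kidneys, 6.65, 7.21, 7.49 and 7.30 in untreated and 7.72, 7.30, 7.46 and 7.60 in CO kidneys at 4 h. No 4 h array overlapped naive, donor 1 included. It rose by 1.13 ± 0.21 untreated and 1.49 ± 0.21 with CO at 4 h, and by 0.75 ± 0.21 untreated at 24 h (limma, adjusted p = 0.0257, 0.00267 and 0.0239). It was the only member called in untreated kidneys at 4 h with all arrays, and without donor 1 it rose there 2.47-fold (limma, adjusted p = 0.000275). With all arrays, a further HSPA13 probe set differed in the same direction in untreated kidneys at 4 h and did not pass. HSPA5 (BiP), the main HSP70 there, read 9.18 and 9.40 in naive kidneys, 9.45, 11.15, 11.21 and 10.74 in untreated and 11.51, 10.83, 11.07 and 11.36 in CO kidneys at 4 h, and 10.46 to 11.01 over the 24 h arrays, all above naive. It rose with CO at 4 h by 1.90 ± 0.36 and at 24 h by 1.41 untreated and 1.38 with CO (limma, adjusted p = 0.00646, 0.0146 and 0.0202). In untreated kidneys at 4 h HSPA5 differed by 1.35 ± 0.36 (limma, adjusted p = 0.0607), and without donor 1 it rose 3.35-fold (limma, adjusted p = 0.000116).

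DNAJB11, a J protein that serves HSPA5, followed with 4.98 and 5.38 in naive kidneys and 6.38 to 6.81 with CO at 4 h, and 6.11 to 6.88 at 24 h. It rose by 1.41, 1.31 and 1.35 in the same 3 comparisons (limma, adjusted p = 0.0164, 0.0187 and 0.0193). Without donor 1, DNAJB11 and HSP90B1 rose in untreated kidneys at 4 h too, by 1.49 and 1.18, and with all arrays they differed by 1.12 and 0.83 and did not pass. HSP90B1 (GRP94) rose with CO at 4 h by 1.08 ± 0.31 (limma, adjusted p = 0.0302) and in a further probe set by 1.42. DNAJB9 (ERdj4), an IRE1-bound J protein, rose with CO at 4 h by 1.14 ± 0.35 (limma, adjusted p = 0.043), and then read 6.12 to 7.62 at 24 h, with 7.24 and 6.75 in naive kidneys.

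The disulfide isomerases were higher at 24 h. PDIA4 read 7.29 and 7.58 in naive kidneys and 8.30 to 9.004 over the 8 arrays at 24 h, a rise of 1.10 ± 0.27 untreated and 1.17 ± 0.27 with CO (limma, adjusted p = 0.0121 and 0.0108). PDIA6 rose by 0.74 with CO at 4 h and by 0.95 and 0.99 at 24 h, and PDIA3 by 0.73 and 0.71 at 24 h. FKBP11, a prolyl isomerase of secretory cells, was the most raised member at 24 h: 5.89 and 6.13 in naive kidneys, 8.25, 8.33, 8.31 and 8.10 untreated and 8.36, 8.47, 8.32 and 7.43 with CO. It rose 4.71-fold in untreated kidneys (limma, adjusted p = 0.000989) and by 2.14 in CO kidneys (limma, adjusted p = 0.00205). Lymphocyte markers, 3 of 7 measured, had mean levels of 2.80 to 3.80 in naive, 3.73 to 6.75 in untreated and 3.29 to 6.02 in CO kidneys at 24 h. Their part in the FKBP11 values was not tested.

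The other FKBP members of the endoplasmic reticulum were lower at 4 h than at 24 h in CO kidneys. FKBP10, a chaperone of collagen, read 4.48 and 4.45 in naive kidneys, 3.77, 6.88, 3.71 and 3.46 in untreated and 3.62, 4.24, 3.70 and 3.49 in CO kidneys at 4 h, and 5.23 to 6.09 at 24 h. Untreated donor 2 was far above the other 4 h arrays, for FKBP7 too (5.82 against 3.67 to 4.14 in its group), and had the highest mean of 5 stromal markers in its group, 8.64 against 6.80 to 7.62. From 4 h to 24 h in CO kidneys FKBP10 rose by 1.91 ± 0.52, FKBP7 by 1.18 ± 0.36, FKBP9 by 1.05 ± 0.22, FKBP14 by 0.94 ± 0.20 and FKBP2 by 0.54 ± 0.14 (limma, adjusted p = 0.0186, 0.0333, 0.00407, 0.00487 and 0.0147). The stromal mean was 6.60 to 7.58 in CO kidneys at 4 h and 7.47 to 8.51 at 24 h, and 1 of the 5 markers rose between them. The part of stromal RNA in these values was not tested.

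In mitochondria, 1 of 7 members rose and 1 fell with CO at 4 h, 28.6%, where 13.6% of probe sets and 20.5% of genes passed. At an unadjusted p under 0.05 there were 5 of the 7, and 6809 of 23999 probe sets. HSPD1 (HSP60), the chaperonin, read 10.69 and 10.55 in naive kidneys, 10.44, 11.20, 11.71 and 11.64 in untreated and 11.90, 11.06, 11.72 and 11.80 in CO kidneys at 4 h, and 10.10 to 10.48 at 24 h. It rose with CO at 4 h by 1.00 ± 0.29 (limma, adjusted p = 0.0304). The untreated difference at 4 h was 0.63 ± 0.29 (limma, adjusted p = 0.221), and without donor 1 HSPD1 rose by 0.90 ± 0.22 (limma, adjusted p = 0.0135). All 8 arrays at 24 h were under both naive arrays, which did not pass. Its lid HSPE1 read 10.35 and 10.06 in naive and 10.44 to 11.18 in CO kidneys at 4 h and did not pass with all arrays. HSPA9 (mortalin), the mitochondrial HSP70, read 9.78 and 9.99 in naive and 10.23 to 10.40 in CO kidneys at 4 h and did not pass with all arrays. DNAJA3, its J protein, fell with CO at 4 h by 0.59 (limma, adjusted p = 0.0299), and by 0.61 in untreated kidneys without donor 1. DNAJC19, part of the motor that imports proteins into mitochondria, read 7.23 and 6.88 in naive and 5.33 to 6.23 over the 24 h arrays, with no overlap, and fell by 1.32 with CO at 24 h (limma, adjusted p = 0.0258). In untreated kidneys it fell 2.71-fold (limma, adjusted p = 0.0141).

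Between 4 h and 24 h the members moved in both directions. In untreated kidneys 9 rose and 8 fell, 26.2% of members, where 9.72% of all probe sets passed, 5.15% higher and 4.57% lower, and 16.3% of genes. In CO kidneys 15 rose and 15 fell, 46.2% of members, where 17.6% of probe sets passed, 10.2% higher and 7.44% lower, and 26.4% of genes. All 17 members called in untreated kidneys were called in the same direction in CO kidneys, which is 100% of the untreated and 56.7% of the CO list. The 2 comparisons use different arrays of the same donors. The overlap among all genes was not counted, so it is not shown to be particular to the members. Without donor 1 untreated, 10 rose and 18 fell in untreated kidneys, 43.1% of members, where 12.2% of probe sets and 19.2% of genes passed. BAG3 fell by 2.54 ± 0.53 untreated and by 3.43 ± 0.53 with CO (limma, adjusted p = 0.0061 and 0.000651), DNAJB4 by 2.48 and 2.59, HSPD1 by 1.05 and 1.30, HSPE1 by 0.80 and 0.97, HSPB6 by 1.29 and 1.33. The members that rose in both were HSPA14, DNAJC8, DNAJC9 and 6 FKBP genes: FKBP1A, FKBP1B, FKBP2, FKBP3, FKBP11 and FKBP14. DNAJC9 rose by 1.91 and 2.18 (limma, adjusted p = 0.000344 and 0.000173), with no overlap between any 4 h and 24 h array.

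**Figure D4:**
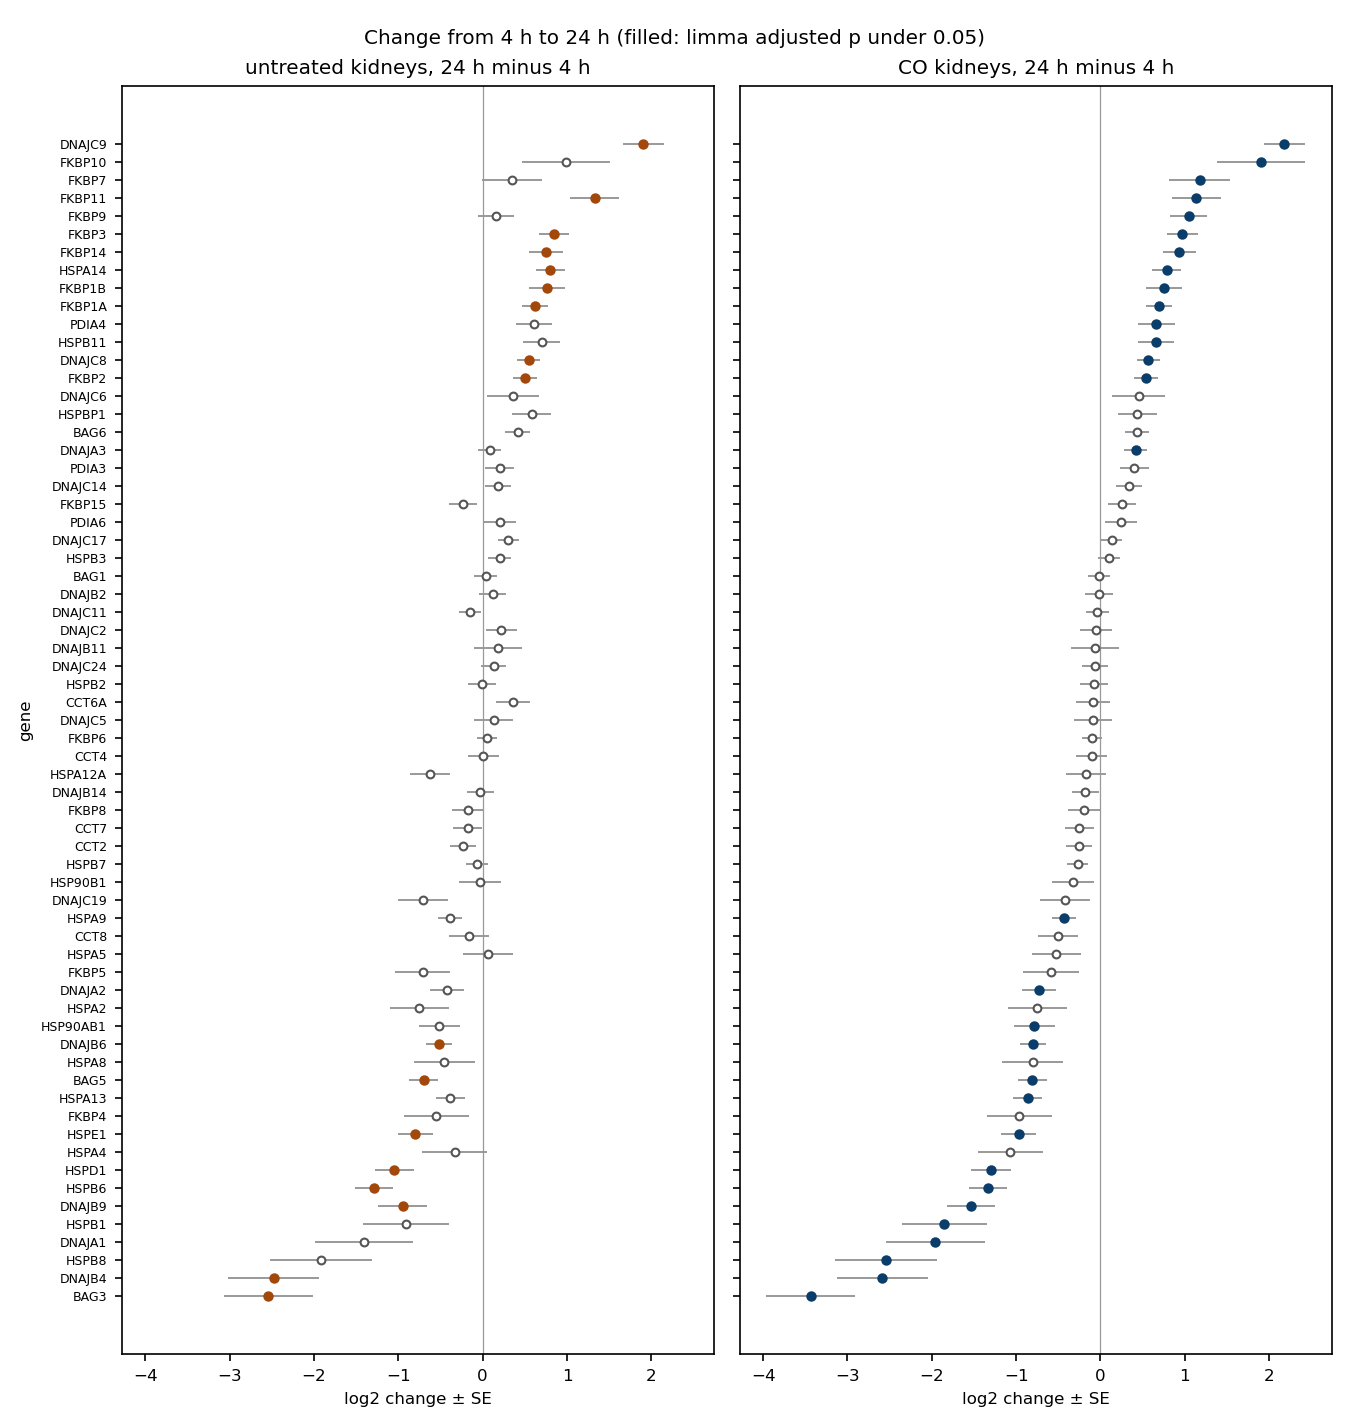
Log2 change from 4 h to 24 h (points, lines ± 1 SE, filled where limma's adjusted p was under 0.05) for the 65 members, in untreated and in CO kidneys. BAG3, DNAJB4 and HSPD1 are filled on the falling side and DNAJC9 and FKBP11 on the rising side in both.

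The 4 dates in the array file names are partly tied to time: all 4 h arrays share a date with a naive array, and of the 24 h arrays only the untreated one of donor 5 does. Within the dates that hold both groups, all 24 members called with CO at 4 h kept their direction, on both dates. So did the 18 called in untreated kidneys at 24 h and the 17 called between untreated times, each on 1 date with 1 array a side. These members were called on fits that include the same arrays. Their agreement in direction was thus largely set beforehand and does not test the date. With the date as a block in the limma fit the count at 4 h with CO was 21, and 2862 probe sets passed. At 24 h against naive and between times it was 0 in both groups. Over all probe sets 159 passed in untreated kidneys at 24 h against naive. In CO kidneys at 24 h, and between times in both groups, 0 passed, so the loss of calls was not particular to the members. At an unadjusted p under 0.05 there were 16 untreated and 11 CO members at 24 h against naive, and 12 and 11 between times. The median size of the called changes was 0.95 with the block against 1.11 without it in untreated and 1.19 against 1.29 in CO kidneys at 24 h, and 0.86 against 0.80 and 0.81 against 0.95 between times. The median SE rose, for CO kidneys at 24 h from 0.28 to 0.44. All but 1 of the 30 members called between CO times kept their direction with the block (PDIA4 did not). No CO array at 24 h shares a date with a naive or 4 h array, so there is no value within a date for them.

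CO was compared with no CO at each time. No member passed at 4 h or at 24 h, where 0% of all probe sets passed, and the lowest adjusted p was 0.999 and 1 in limma. At an unadjusted p under 0.05 there was 1 member at 4 h, FKBP9, and 0 at 24 h. Of 23999 probe sets 787 at 4 h and 281 at 24 h were under it. For BAG3 at 4 h the difference was 0.67 with a 95% interval of -0.45 to 1.78, for HSPB1 0.81 (-0.26 to 1.88), and for HSPA5 0.55 (-0.06 to 1.17). At 24 h the differences of these were -0.22 (-1.34 to 0.89), -0.13 (-1.20 to 0.94) and -0.03 (-0.65 to 0.59). FKBP9, an ER prolyl isomerase, was lower by 0.47 with CO at 4 h and higher by 0.42 at 24 h, an interaction of 0.89 (unadjusted p = 0.0101, adjusted p = 0.996 in limma).

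By donor, the median member differed by 0.40 in donor 1 and by 0.02, -0.01 and 0.02 in donors 2 to 4, and by 0.16, -0.11, 0.01 and 0.07 in donors 5 to 8. In donors 5 and 6 the CO and untreated arrays carry different dates, so CO and date cannot be told apart there. This holds for every 24 h value by donor given below. The untreated array of donor 1 is the one that lay near naive. For BAG3 the donors' differences were 3.28, -1.27, 0.14 and 0.52. At 4 h, 5 members were higher with CO in all 4 donors (CCT6A, DNAJB14, DNAJB2, HSPB2 and HSPB7) and 3 lower (FKBP1A, HSPA12A and PDIA3). At 24 h, 3 were higher (DNAJC8, FKBP15 and FKBP9) and 0 lower. Of the 6765 named genes 4.41% were higher and 7.85% lower in all 4 donors at 4 h, and 6.18% and 3.62% at 24 h, against 7.69% and 4.62%, and 4.62% and 0%, of the members, so these counts are near those of all genes. FKBP9 differed by -1.10, -0.96, -0.06 and 0.25 in donors 1 to 4 and by 0.61, 0.29, 0.37 and 0.42 in donors 5 to 8. Its difference at 4 h lies in donors 1 and 2, and donor 4 went the other way. In donors 1 and 2 FKBP9 read 6.67 and 7.15 untreated and 5.58 and 6.19 with CO. Without the untreated array of donor 1 the difference at 4 h was -0.02 for BAG3 and 0.05 for HSPB1, and 0 members passed.

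**Figure D5:**
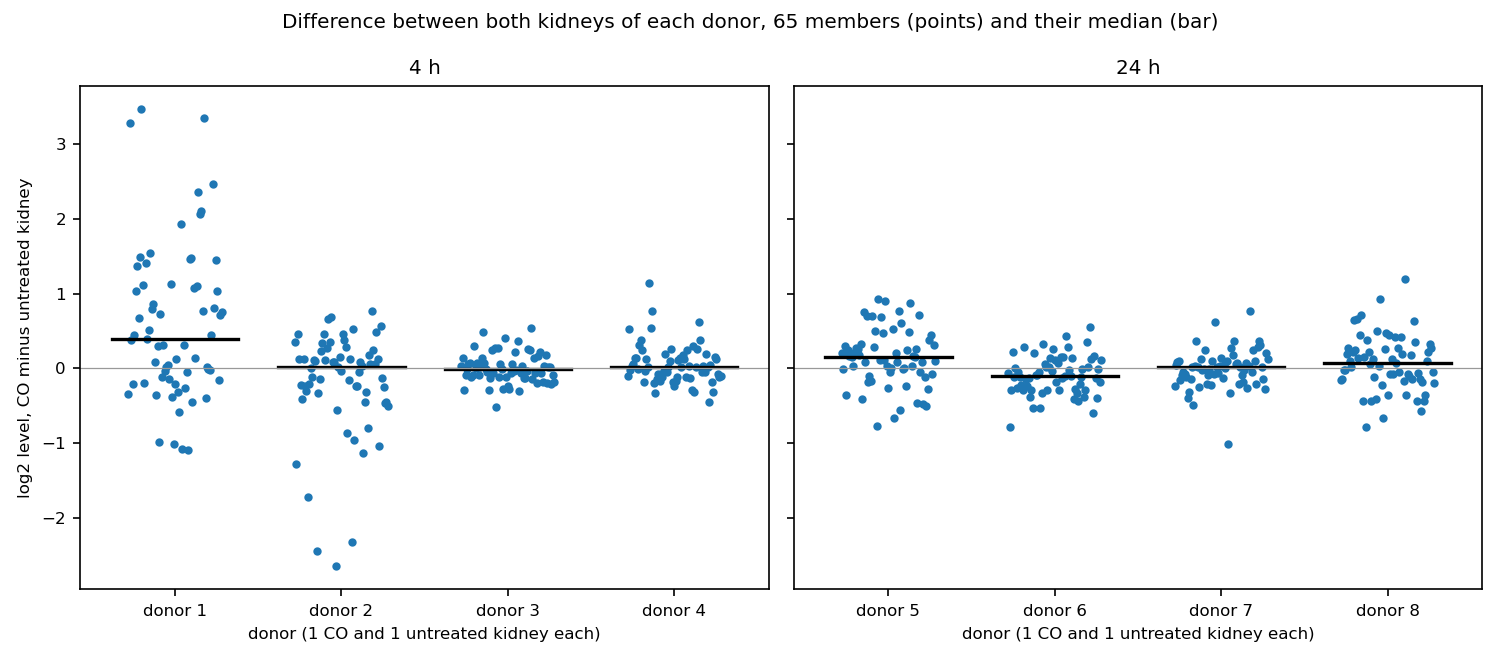
CO minus untreated log2 difference in each donor for the 65 members (points), with their median (bar), at 4 h for donors 1 to 4 and at 24 h for donors 5 to 8. The median is 0.40 in donor 1 and between -0.11 and 0.16 in the other 7 donors.

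The wider chaperone network was read from a list of 42 partner genes, of which 29 were measured. In untreated kidneys at 4 h 0 passed with all arrays, and without donor 1 11 rose and 1 fell, where 19.6% of genes passed. With CO at 4 h 8 rose and 2 fell, where 20.5% of genes passed. At 24 h 8 rose and 2 fell in untreated and 8 rose and 1 fell in CO kidneys, where 22.9% and 18.8% of genes passed. At 4 h with CO, CRYAB, a small heat shock protein, rose by 3.75, SERPINH1, a collagen chaperone, by 2.39, PTGES3 (p23), an HSP90 cochaperone, by 2.25, STIP1 (HOP), which links HSP70 to HSP90, by 1.88 and TCP1, the CCT subunit that the name pattern does not reach, by 1.52 (limma, adjusted p = 0.00854, 0.0389, 0.012, 0.0204 and 0.00821). At 24 h in untreated kidneys CRELD2 and SDF2L1, unfolded protein response targets, rose by 2.68 and 1.82 (limma, adjusted p = 0.00143 and 0.0123), and HYOU1 by 1.49. TCP1 rose at 24 h by 1.03 in both groups. TRAP1, the mitochondrial HSP90, fell by 0.93 with CO at 4 h and by 0.89 untreated at 24 h. No partner passed between CO and untreated kidneys.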

How the data were processed

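RNA from 18 pig kidney samples was hybridised to a one-colour Affymetrix array, and the deposited log2 values had been made by the authors with RMA, per the submitters' processing notes. The array held 24123 probe sets; 124 controls were left out. Gene symbols came from the platform annotation: 10069 probe sets have 1 symbol, 198 several and 13732 none. Values ran from 0.226 to 13.46. The background of 1.69 was the 97.5th percentile of 17 tag control probe sets, chosen after the file was seen.

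limma 3.58.1 in R 4.3.3 fitted 5 group means to all 18 arrays, without a block, and gave 9 comparisons, two-sided and adjusted by Benjamini-Hochberg over 23999 probe sets, called at 0.05. The p-values measure the spread between these samples. Named genes were fixed members plus, for each comparison and compartment, up to 4 called members of largest change. The members and lists were chosen with earlier results of these data known. The fit was tested on simulated data. Donor numbers pair the arrays: same-donor correlations of deviations ran from -0.20 to 0.57, over 0.1 in 6 of 8 donors. Other variance models, filters, normalisations, weights, blocks and left-out arrays were tried. The number of arrays limits the precision. Sequences were not used here.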

Additional observations from a re-analysis of the deposited data

Results flagged for a closer look

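Of 92 values tested, for 23 genes in 4 groups, 13 members' values on 1 array lay far from the other 3 of the group. The rate set for a single test was 5%. Genes on the same array are not independent, so the 13 are not separate events and chance was not tested. In untreated kidneys at 4 h the array of donor 1 read HSPA8 9.297, HSP90B1 8.98, BAG3 8.495 and DNAJA1 7.377, each the lowest of its group by a wide gap. In CO kidneys at 4 h the array of donor 2 read HSPA8 10.34, CCT2 8.891, BAG3 9.814 and FKBP4 7.304. In untreated kidneys at 24 h, donor 8 read HSPA9 9.502, CCT8 8.974 and PDIA3 8.218, and donor 6 read HSP90B1 10.37 and PDIA4 9.004, the latter both the highest. The 2 arrays that stand apart at 4 h account for 8 of the 13, and their cause was not tested.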

How the results depend on the processing

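Counts of members called, by limma, over all settings tried were compared with those of all 18 arrays. Robust fitting, quantile normalisation and median centring kept all counts within 1.5 times. So did the date as a random block, but its estimated correlation was -0.006. That fit is nearly the one without a block, and its like counts do not test the date. For untreated kidneys at 4 h against naive (1 member), an intensity trend and a filter above background each gave 2. The groups compared alone and the probe set of largest variance each gave 0 (23 and 26 at an unadjusted p under 0.05), and array weights gave 34. Over all probe sets these settings called 347, 479, 0, 361 and 4760, in that order, against 361 in the main fit. Array weights also gave 41 with CO at 4 h, 34 and 28 in untreated and CO kidneys at 24 h, and 29 between untreated times. Calls over all 23999 probe sets rose too, to 7037, 7744, 6224 and 4978 in these comparisons. The higher counts with array weights are thus not particular to the members. The groups compared alone gave 23 with CO at 24 h and 10 between untreated times, with 3496 and 1462 called over all probe sets. With the date as a fixed block the counts were 0 at 24 h against naive and between times in both groups. Over all probe sets 159 passed in untreated kidneys at 24 h against naive, and 0 in the other comparisons just named. PDIA4 between CO times reversed to -0.11 (limma, adjusted p = 0.948). Leaving out 1 array at a time gave 0 to 25 in untreated and 0 to 28 in CO kidneys at 4 h, 3 to 22 and 3 to 14 at 24 h, 9 to 28 between untreated and 21 to 33 between CO times, and 0 for CO against untreated and the interaction. Leaving out untreated donor 1 and CO donor 2, chosen after seeing the data, gave 30 between untreated times, with 3345 called over all probe sets. With the donor as replicate block, counts stayed 0 for CO against untreated at 4 h, at 24 h and for the interaction. The cause of these shifts was not tested. Of single members' values under these settings, 4560 kept direction and side of the threshold, 342 lost a call, 121 gained one, 217 uncalled values changed sign and 1 called value did. Signal over background limits FKBP6 and HSPB3.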
